A study of Mus musculus with 105 samples.

Results

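Peg10, Sgce, Mest, Copg2, Grb10, Impact, Nnat, Zrsr1, Inpp5f and Peg13 are genes known to be imprinted in the mouse, in some tissues or for some transcripts. They are taken by name, by a rule that uses no measured value, although earlier results of these data were known when the names were picked, and all 10 were found among the 52016 genes of the bulk count tables. Female mouse embryonic stem cells (mESCs) of the line TX1072 (clone A3, an F1 hybrid of C57BL6/J, called B6, and Cast/EiJ, called Cast) were differentiated by withdrawal of 2i/LIF, the inhibitors and the cytokine that hold mESCs in the naive state. In TX1072 a doxycycline-responsive promoter stands before Xist on the B6 allele, with an rtTA insertion at Rosa26. TXdXicB6 and TXdXicCast are derivatives that lack the region around Xist on the B6 X chromosome, with that promoter, or on the Cast X chromosome, and each is 1 clone. Bulk RNA of each line was sequenced at days 0, 1, 2, 3 and 4 with 3 replicates per line and day (45 libraries), and single TX1072 cells were sequenced at the same days from a single culture per day. Each single-cell capture column of day 1 also has a sample titled RapidRun, while the columns of the other days do not. The paper gives a shorter cDNA read for its Rapid Run mode. In the single cells this run cannot be told apart from day 1.

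Imprinting restricts a gene to the copy inherited from either the mother or the father. DNA methylation laid down in the egg or the sperm at differentially methylated regions marks the copies, and after fertilization ZFP57 and TRIM28 bind the methylated copy while DNMT1 and UHRF1 copy the mark at each division. Female mESCs grown in 2i are known to lose DNA methylation broadly, imprints included. Methylation was not measured here. Neither the labels nor the methods give the mother's strain, so shares are given by strain, and the effect of strain and the effect of parent cannot be told apart.

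A read was assigned to an allele where it covered a SNP between the strains, so the sequences behind the allelic shares of the 3 genes that moved most are shown first. Each run holds 29 bases of a coding exon in mm10 with the B6 base of the SNP in capitals, written 5′ to 3′ on the strand of the gene. In each token the B6 base comes first, then the position counted from the 5′ end of the run, then the Cast base.
Peg10, chr6:4755825-4755853, plus strand, A15T: ctgtttacagtgccAcaaccgaatttgca
Peg10, chr6:4757082-4757110, plus strand, T15C: ggacgaataatcgtTgtgcctgttgtaat
Sgce, chr6:4689633-4689661, minus strand, A15G: caccctgtaactggAgaggttatacctcc
Sgce, chr6:4707104-4707132, minus strand, T15C: acgtcagccctggaTaggggtggcagagt
Inpp5f, chr7:128664037-128664065, plus strand, A15G: atgttcatggactcAgagtccttctatta
Inpp5f, chr7:128685238-128685266, plus strand, C15T: gacgagaagttccaCgggggctgggccct
The exons of Peg10 hold 14 SNPs, those of Sgce 62 and those of Inpp5f 34. Mest has 11, Copg2 8, Grb10 28, Impact 30, Zrsr1 10 and Peg13 32. Nnat has 1 exonic SNP and at most 5 allele-specific (AS) counts in a library, so its alleles could not be told.

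Several members share their surroundings. Peg10 (chr6:4747306-4760517, plus strand) and Sgce (chr6:4674350-4747207, minus strand) stand head to head with 98 bp between them. Mest (chr6:30723547-30748465, plus strand) and Copg2 (chr6:30747554-30896794, minus strand) overlap at their ends over 912 bp, 23.1% of the exons of Mest. Nnat lies within Blcap, Zrsr1 within Commd1 and Peg13 within Trappc9. The counting of the bulk reads is not stated to use strand, so reads from the shared 912 bp, and from the 412 bp of exon that Zrsr1 shares with Commd1, cannot be assigned with certainty.

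Libraries of TX1072 held 19827011 to 39628784 counts, of which 17.9% to 20.3% were AS. Those of TXdXicB6 held 20246434 to 49962859 (5.21% to 34.9% AS) and those of TXdXicCast 16906263 to 57920260 (22.9% to 34.2% AS). In 4 deletion-line libraries under 25% of counts were AS, lowest in TXdXicB6 day 0 replicate 1. TX1072 was prepared and sequenced with other kits and another instrument than the deletion lines, so these are set side by side and not tested against each other. The RNA of TXdXicCast at day 0 was degraded, and changes in this line were also computed from day 1, which spans less of the course.

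In TX1072, the line for which sums are given here, the summed naive markers fell and the summed formative markers rose. The 7 naive genes summed to 4685, 4873 and 5001 CPM (counts relative to library size, scaled by TMM on autosomal genes) in TX1072 at day 0, led by Tfcp2l1, and to 361, 447 and 439 CPM at day 4. The 4 formative genes, led by Dnmt3b, summed to 197, 266 and 205 CPM at day 0 and to 887, 735 and 738 at day 4. Of the placental genes, Prl3d1 was at 0 in every bulk library at days 0 and 4, and Tpbpa did not exceed 0.0336 CPM. In single TX1072 cells at day 4, Tpbpa and the trophoblast marker Elf5 each had UMIs in 1 of 272 cells. The trophoblast marker Cdx2 had UMIs in 8 of 277 cells at day 0 and 2 of 272 at day 4. In bulk RNA, fewer cells of a type and less RNA per cell cannot be told apart.

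Peg10, a retrotransposon-derived gene known for its need in the placenta, rose within a day of 2i/LIF withdrawal. In TX1072 it stood at 55.0, 71.3 and 103 CPM at day 0, at 997, 970 and 1238 at day 1, at 647, 495 and 785 at day 2, at 616, 779 and 658 at day 3 and at 1195, 1557 and 1508 at day 4. All libraries of days 1 to 4 lay above all libraries of day 0, and day 2 and day 3 overlapped. From day 0 to day 4 the log2 change in level was 4.22 ± 0.23 (SE, 18.6-fold, adjusted p = 1.7407e-11 by edgeR's quasi-likelihood test, n = 3 per group), and from day 0 to day 1 it was 3.81 ± 0.22. In TXdXicB6 Peg10 stood at 196, 260 and 269 CPM at day 0, at 3189, 2822 and 2933 at day 1 and at 1572, 1819 and 1262 at day 4, and the change to day 4 was 2.68 ± 0.18. In TXdXicCast it stood at 231, 278 and 217 CPM at day 0, at 3096, 3025 and 2927 at day 1 and at 2979, 2671 and 4481 at day 4, a change of 3.80 ± 0.19. The step to day 1 was 3.62 ± 0.19 in TXdXicB6 and 3.64 ± 0.19 in TXdXicCast. Measured from day 1, the level in TXdXicB6 fell by 0.94 ± 0.17 (adjusted p = 3.226e-05), while the change was 0.41 ± 0.20 in TX1072 (adjusted p = 0.082681) and 0.16 in TXdXicCast (adjusted p = 0.42939). In single TX1072 cells, which came from the population of bulk replicate 1 and are no independent culture, the summed UMIs (unique molecular identifiers) of Peg10 gave 14.3 CPM at day 0 (exact Poisson 95% interval 13.2 to 15.6), 208.8 at day 1, then 99.2 at day 2, and 199.5 by day 4. A Peg10 UMI was seen in 39.0% of 277 retained cells at day 0 and in 99.1% of 325 at day 1.

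**Figure D1:**
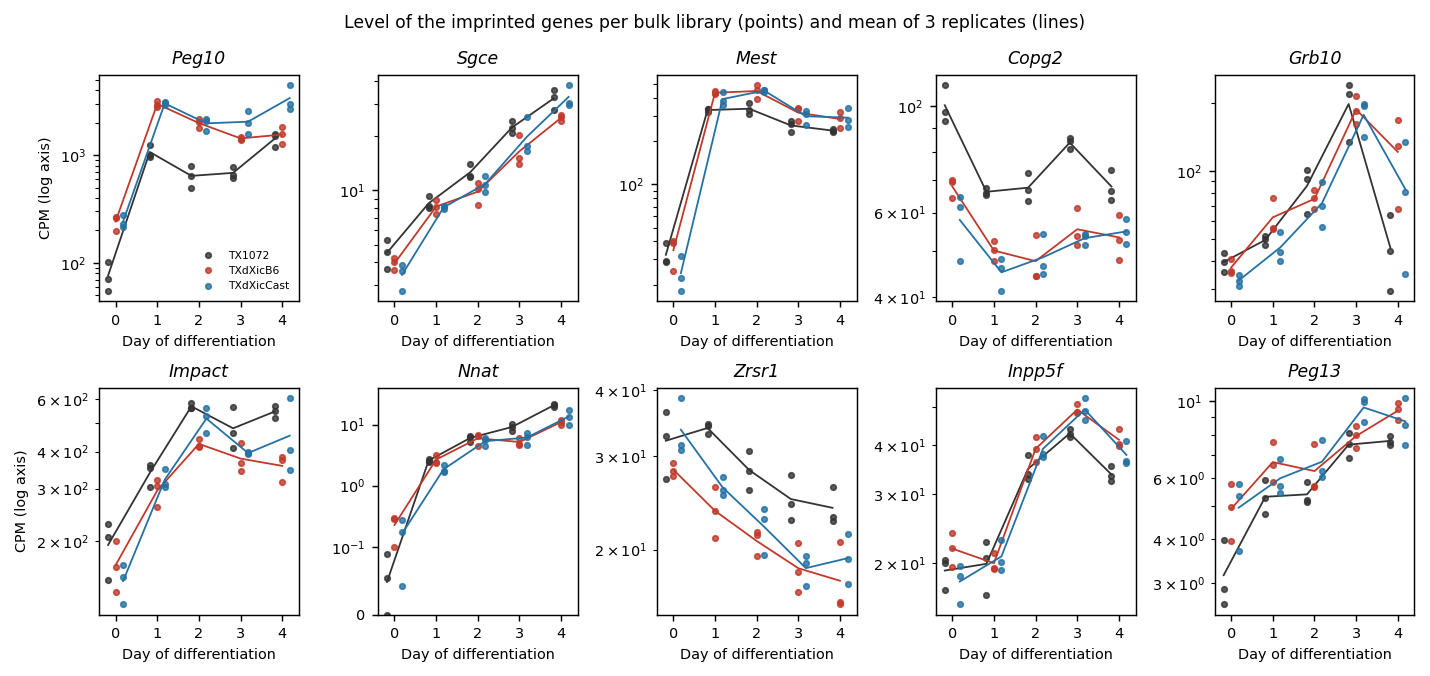
Level of each of the 10 genes in CPM (log axis, for Nnat linear near 0) against day of differentiation, with a point for each bulk library and a line through the mean of 3 replicates, for TX1072, TXdXicB6 and TXdXicCast. Peg10 and Mest step up at day 1, Nnat climbs from near 0 to day 4, and Grb10 peaks at day 3.

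Sgce, which codes for the epsilon subunit of the sarcoglycan complex, rose from day 0 to day 1 and further to day 4. The log2 change to day 1 was 0.91 ± 0.15 in TX1072, 1.04 ± 0.17 in TXdXicB6 and 1.26 ± 0.18 in TXdXicCast. In TX1072 it stood at 4.53, 3.68 and 5.30 CPM at day 0, at 8.02, 9.23 and 8.15 at day 1 and at 35.7, 32.9 and 28.0 at day 4. The ranges of days 0, 1 and 4 did not overlap, and the log2 change to day 4 was 2.84 ± 0.15. It was 2.68 ± 0.17 in TXdXicB6 and 3.29 ± 0.18 in TXdXicCast. Per kilobase of exon at day 4, TX1072 held 213 ± 29 CPM of Peg10 and 3.03 ± 0.37 CPM of Sgce (SD, n = 3). In TX1072 cells Sgce UMIs were found in 15.5% of cells at day 0 and 64.7% at day 4.

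Mest, which codes for a protein of the alpha/beta hydrolase fold, reached its highest level at days 1 and 2. In TX1072 it stood at 28.8, 38.8 and 29.3 CPM at day 0, at 332, 319 and 334 at day 1, at 309, 329 and 369 at day 2, at 231, 277 and 263 at day 3 and at 243, 235 and 232 at day 4. The change was 3.35 ± 0.13 on the log2 scale at day 1 (10.2-fold) and 2.87 ± 0.12 at day 4. Between days 1 and 4 Mest fell by 0.47 ± 0.12 in TX1072 (adjusted p = 0.0016699) and by 0.61 ± 0.16 in TXdXicB6 (adjusted p = 0.0023656). At day 4 the change from day 0 was 3.03 ± 0.18 in TXdXicB6 and 3.59 ± 0.18 in TXdXicCast. Counted from day 1, which avoids the degraded day 0 libraries, Mest in TXdXicCast fell by 0.43 (adjusted p = 0.025142). The UMIs of single cells gave 20.6 CPM of Mest at day 0 and 275.9 at day 1.

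Copg2, a coatomer subunit gene whose last exon lies across that of Mest, did not follow it. It stood at 110, 97.1 and 93.1 CPM at day 0 and 73.6, 66.6 and 63.7 at day 4 in TX1072, without overlap, and it fell by 0.56 ± 0.10. In TXdXicB6 it fell by 0.35 ± 0.11 (adjusted p = 0.0077554, and 0.05314 or 0.068136 without replicate 1 or 2). In TXdXicCast the change was -0.08 ± 0.11 (adjusted p = 0.51731), and from day 1 Copg2 rose by 0.28. Single cells gave 17.4 CPM of Copg2 at day 0 (exact Poisson 95% interval 16.1 to 18.8) and 14.1 at day 4 (13.1 to 15.3). Its paralogue Copg1 gave -0.10 ± 0.10 in TX1072, where it did not pass (adjusted p = 0.40098), and fell in TXdXicB6 (-0.45 ± 0.08) and TXdXicCast (-0.70 ± 0.08, and -0.18 with an adjusted p of 0.054836 from day 1).

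A Mest promoter is printed with that of Nnat because Mest made one of the largest steps among the members and because ZFP57 is known to bind TGCCGC in methylated DNA. The capitals mark matches to TGCCGC or its reverse complement GCGGCA, searched on both strands.
Mest, chr6:30737800-30738099, plus strand, GRCm38.p6, RefSeq: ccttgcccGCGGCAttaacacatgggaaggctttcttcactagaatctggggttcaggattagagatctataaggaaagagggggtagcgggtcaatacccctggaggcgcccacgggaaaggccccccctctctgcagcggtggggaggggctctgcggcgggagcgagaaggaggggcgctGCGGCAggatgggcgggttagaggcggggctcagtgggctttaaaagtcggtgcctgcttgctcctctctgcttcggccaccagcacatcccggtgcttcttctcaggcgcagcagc
Nnat, chr2:157559828-157560127, plus strand, GRCm38.p6, RefSeq: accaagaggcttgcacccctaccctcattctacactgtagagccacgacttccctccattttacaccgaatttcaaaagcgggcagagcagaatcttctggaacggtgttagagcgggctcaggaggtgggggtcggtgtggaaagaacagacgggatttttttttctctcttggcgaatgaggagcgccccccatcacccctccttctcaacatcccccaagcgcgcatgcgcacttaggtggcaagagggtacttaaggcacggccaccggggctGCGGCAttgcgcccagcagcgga
The printed Mest window held 2 matches and the Nnat window 1, each with 17 CpG against a median of 7 over 32851 RefSeq promoter windows of the same 300 bases. Of those windows 11.6% held at least 1 match and 1.53% at least 2. Windows were found for 6 of the 10 members (Copg2, Grb10, Inpp5f, Mest, Nnat and Zrsr1). A second Mest window (chr6:30733256-30733555) held 0 matches and 8 CpG, the windows of Inpp5f and Zrsr1 and 1 of the 2 of Grb10 held 0, and that of Copg2 and the other of Grb10 held 1. A match is a description of letters only.

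Nnat, a small membrane protein gene of the endoplasmic reticulum that is known from neurons, went from near absence to a measurable level. TX1072 held 0.0543, 0 and 0.0898 CPM at day 0, then 2.44, 2.74 and 2.56 at day 1, and reached 21.0, 21.6 and 19.4 at day 4. All later libraries lay above all day 0 libraries. The log2 change from day 1 to day 4 was 3.00 ± 0.18. The change from day 0 was 8.67 ± 0.30 in TX1072, 5.63 ± 0.35 in TXdXicB6 and 6.54 ± 0.37 in TXdXicCast, and it rests on few reads at day 0. In single cells 1 Nnat UMI was counted at day 0 and 1692 at day 4, when 51.8% of 272 cells held one. Its host gene Blcap rose in TXdXicCast (0.37 ± 0.13, and 0.35 from day 1) and gave 0.11 ± 0.12 in TX1072 and -0.11 ± 0.13 in TXdXicB6, where it did not pass.

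Impact and Inpp5f rose by smaller steps. Impact, whose product inhibits activation of the kinase GCN2, stood at 206, 228 and 148 CPM at day 0 and at 570, 517 and 550 at day 4 in TX1072. Its log2 change was 1.49 ± 0.14 in TX1072, 1.11 ± 0.16 in TXdXicB6 and 1.63 ± 0.16 in TXdXicCast. Inpp5f, a phosphoinositide phosphatase gene with an imprinted variant known from brain, stood at 20.4, 19.9 and 17.0 CPM at day 0, at 42.8, 44.0 and 41.9 at day 3 and at 32.4, 35.3 and 33.3 at day 4 in TX1072. It did not overlap between these days and rose by 0.81 ± 0.12 to day 4, by 0.93 ± 0.10 in TXdXicB6 and by 1.07 ± 0.10 in TXdXicCast. Single cells gave 128.7 CPM of Impact at day 0 and 457.6 at day 4, and 15.8 and 30.1 CPM of Inpp5f.

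Grb10, an adaptor that restrains insulin and IGF1 receptor signalling, peaked at day 3. In TX1072 it stood at 43.3, 35.6 and 39.6 CPM at day 0, at 134, 240 and 218 at day 3 and at 29.4, 44.2 and 63.6 at day 4. Days 0 and 4 overlapped, and day 3 stood above both. The log2 change was 2.32 ± 0.24 at day 3 and 0.21 ± 0.24 at day 4 (adjusted p = 0.45785). Without replicate 1 Grb10 was among the members called at day 4 in TX1072. At day 4 Grb10 passed the test in the deletion lines, 3.25-fold above day 0 in TXdXicB6 (1.70 ± 0.30, adjusted p = 2.0476e-05) and 2.53-fold in TXdXicCast (adjusted p = 0.00028046). The UMIs of single TX1072 cells gave 24.98 CPM of Grb10 at day 0 (exact Poisson 95% interval 23.4 to 26.6), 59.5 at day 3 and 10.7 at day 4 (9.72 to 11.7), below day 0, with a UMI in 40.1% of cells at day 0 and 20.2% at day 4.

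Zrsr1, an intronless copy of the splicing factor gene Zrsr2, fell from day 0 to day 4 in bulk RNA and not in the single cells. It stood at 36.4, 32.8 and 27.2 CPM at day 0 and at 23.0, 26.3 and 22.7 at day 4 in TX1072, where it fell by 0.42 ± 0.12 (adjusted p = 0.0052401, and 0.13997 without replicate 1). It fell by 0.70 ± 0.12 in TXdXicB6 and by 0.81 ± 0.12 in TXdXicCast. In single TX1072 cells, read as 3′ UMIs, Zrsr1 gave 28.3 CPM at day 0 (exact Poisson 95% interval 26.7 to 30.0), 20.8 at day 3 and 35.5 at day 4 (33.8 to 37.3), and 43.0% and 51.1% of cells held a UMI at days 0 and 4. Its X-linked paralogue Zrsr2 fell by 0.84 ± 0.11, 1.21 ± 0.14 and 1.74 ± 0.14 in the 3 lines, and by 0.79 from day 1 in TXdXicCast. X inactivation takes place over the same days. The log2 B6 to Cast ratio of Zrsr2 changed by 0.65 ± 0.09 in TXdXicB6 and -0.58 ± 0.08 in TXdXicCast from day 0 to day 4. The part of X inactivation in the fall of Zrsr2 was not tested. Since Zrsr1 and Zrsr2 share sequence, reads could be split between them, and the values of both are uncertain. Peg13, a noncoding RNA, rose by 1.28 ± 0.17, 0.94 ± 0.17 and 0.81 ± 0.17 from a low level (2.60 to 3.99 CPM at day 0 in TX1072). Its host gene Trappc9 fell in TXdXicB6 (-0.41 ± 0.17) and TXdXicCast (-0.76 ± 0.17, and 0.04 with an adjusted p of 0.87729 from day 1) and gave -0.27 ± 0.12 in TX1072 (adjusted p = 0.075914). Commd1, the host of Zrsr1, fell by 0.62 ± 0.15 in TXdXicCast (0.24 with an adjusted p of 0.18118 from day 1) and did not pass in the other lines.

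Counted over day 4 against day 0 at an adjusted p of 0.05, 7 members rose and 2 fell in TX1072, 8 rose and 2 fell in TXdXicB6, and 8 rose and 1 fell in TXdXicCast. Of all genes tested, 29.8% rose and 30.0% fell in TX1072 (18871 genes), 30.1% rose and 29.1% fell in TXdXicB6 and 36.0% rose and 33.7% fell in TXdXicCast (19885 genes). The median log2 change of the 10 members was 1.39, 1.41 and 1.48, beside -0.05, -0.000895 and 0.05 over all genes tested. Under every alternative run the number of members called was 9 in TX1072, 9 or 10 in TXdXicB6 and 9 in TXdXicCast. The members behind a count could differ. Without replicate 1 in TX1072 Zrsr1 did not pass, so the 9 called there included Grb10. From day 1, 7 members rose and 2 fell in TXdXicCast, with log2 changes of 2.03 for Sgce, 2.86 for Nnat, 0.49 for Impact, 0.86 for Inpp5f, 0.85 for Grb10, 0.54 for Peg13 and -0.44 for Zrsr1 beside those given above. Of all 19885 genes tested from day 1 in TXdXicCast, 30.4% rose and 28.8% fell.

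The patterns of Peg10 and Mest over the 15 groups of line and day, each centred on the mean of its line, were set beside those of 18382 genes. Most like Peg10 were Pxdn (Pearson r = 0.987), Basp1 (0.983) and Itga3 (0.981). Most like Mest were Efnb2 (0.993), Thap6 (0.992) and Slc7a7 (0.992). These correlations are across 15 group means that share the course of differentiation and are given as a description. Among members, Peg10 and Mest were the closest to each other (0.946) after Sgce and Nnat (0.961) and Sgce and Peg13 (0.947).

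The deletion lines differed in Peg10. Over the mean of 5 days Peg10 was 0.33 ± 0.08 lower on the log2 scale in TXdXicB6 than in TXdXicCast (adjusted p = 0.0050501), while the other 9 members did not pass. Of 19885 genes, 4.52% were higher in TXdXicB6 and 6.53% higher in TXdXicCast. Without replicate 1 the difference was -0.33 with an adjusted p of 0.069688. Day by day, Peg10 differed at day 4 (-1.12 ± 0.17, adjusted p = 0.00020291) and did not pass at day 0, 1, 2 or 3, where the largest difference was -0.51 ± 0.17 (day 3, adjusted p = 0.16828). TXdXicB6 held 1572, 1819 and 1262 CPM of Peg10 at day 4 and TXdXicCast 2979, 2671 and 4481, without overlap, while at day 1 they held 2822 to 3189 and 2927 to 3096. The change from day 0 to day 4 differed between the lines by -1.12 ± 0.24 (adjusted p = 0.0028206), and that from day 1 to day 4 by -1.11 ± 0.24 (adjusted p = 0.021556). Mest was the other member that passed at a single day, 0.53 ± 0.17 higher in TXdXicB6 at day 0 (adjusted p = 0.027429), where the RNA of TXdXicCast was degraded. Without replicate 3 the Peg10 difference from day 0 was -0.59 (adjusted p = 0.16427), and that from day 1 did not pass without any one replicate (adjusted p = 0.30586, 0.13646 and 0.20219).

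TXdXicCast day 4 replicate 3, which held 4481 CPM of Peg10, stood apart in other genes as well. Its mesendoderm markers (T, Mixl1 and Eomes, 3 of 3 measured) summed to 190 CPM, led by T, against 71.8 and 58.9 in the other TXdXicCast day 4 libraries and 79.0, 120 and 86.3 in TXdXicB6, led by Eomes. Its formative markers summed to 610 CPM against 926 and 1035, and it held 35.0 CPM of Grb10 against 80.2 and 134 and 605 CPM of Impact against 406 and 346. In TX1072 at day 4 the mesendoderm sums were 332, 184 and 146 CPM with Peg10 at 1195, 1557 and 1508. The part of these markers in the Peg10 difference was not tested.

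The allelic measurements asked whether the members were read from a single copy. No member with enough AS counts was monoallelic at any day. Among 150 values (10 genes, 5 days, 3 lines), classed from the pooled AS counts of a group with at least 50, 132 were biallelic (at least 20% on each allele), 3 lay between and 0 were monoallelic (over 90% on an allele). The 15 of Nnat had too few counts. All 3 that lay between were Inpp5f at day 0. Of autosomal genes with at least 50 AS counts, 93.7% were biallelic at day 0 and 97.0% at day 4 in TX1072, 94.8% and 97.3% in TXdXicB6, and 93.8% and 97.3% in TXdXicCast. With biallelic set at 30% on each allele, 126 of the member values were so classed. The share of autosomal genes was computed at the 20% limit only, so this count has no background beside it.

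**Figure D2:**
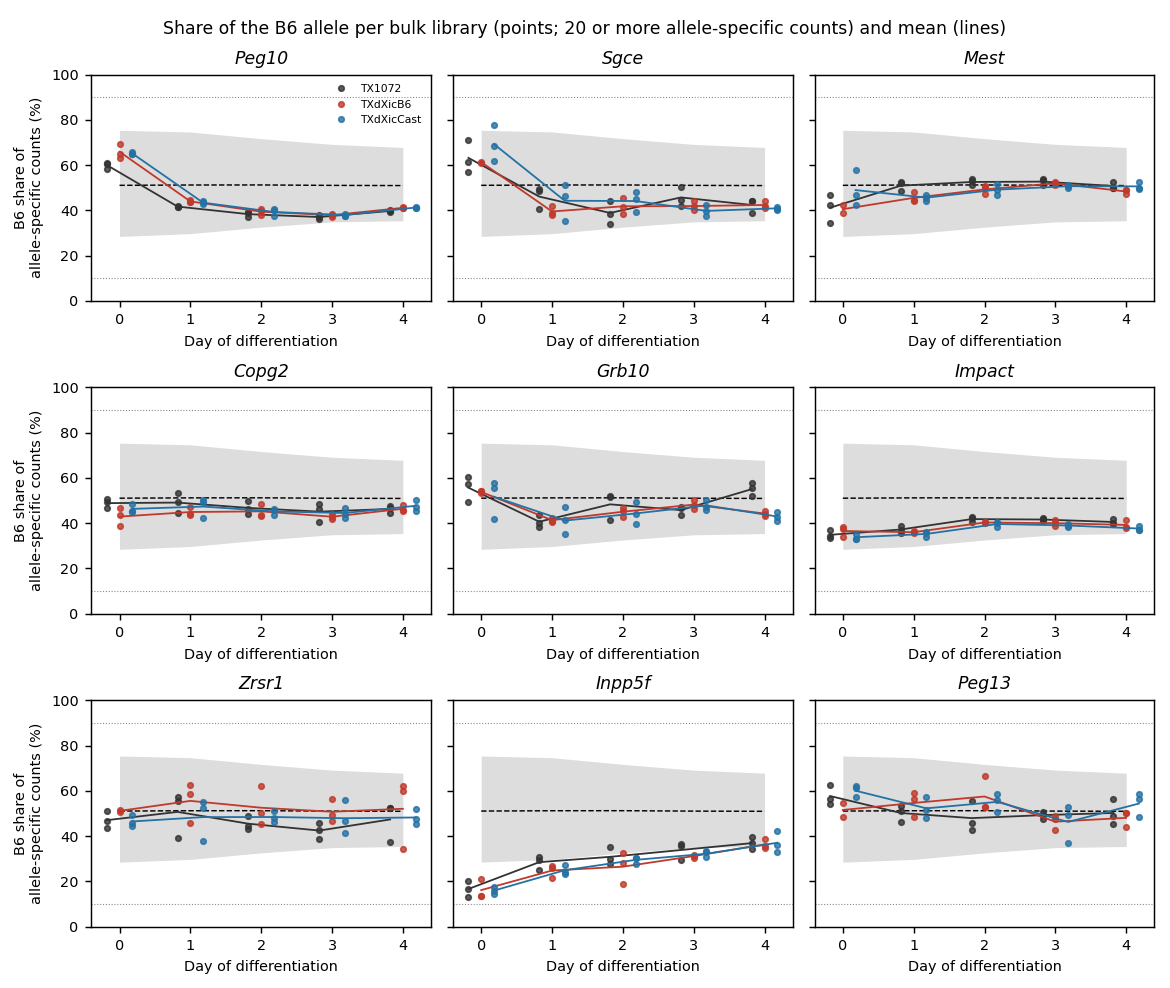
B6 share of AS counts in percent against day for the 9 genes with enough AS counts, with a point for each library of at least 20 AS counts, lines through the means, and the 5th to 95th percentile of autosomal genes in TX1072 as a grey band around their median (dashed). Peg10 and Sgce start above the median and end below it, Inpp5f goes from 13.2% to 21.2% at day 0 to 32.9% to 42.1% at day 4, and no member reaches the dotted lines at 10% and 90%.

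Peg10 moved from the B6 towards the Cast allele at day 1. Its B6 share in TX1072 was 61.1%, 58.4% and 60.5% at day 0, then 41.5%, 42.1% and 41.4% at day 1, and ended with 40.2%, 39.1% and 39.8% at day 4. In TXdXicB6 it went from 69.3%, 63.3% and 65.0% at day 0 to 40.8%, 41.0% and 41.4% at day 4, and in TXdXicCast 64.7%, 65.8% and 64.9% at day 0 and 41.2%, 41.1% and 41.4% at day 4. In each line all libraries of day 0 lay above all later ones. The log2 B6 to Cast ratio changed from day 0 to day 4 by -1.19 ± 0.09 in TX1072 (adjusted p = 5.2349e-19), -1.39 ± 0.06 in TXdXicB6 and -1.42 ± 0.06 in TXdXicCast. Both alleles rose. In TX1072 the B6 part of the Peg10 level went from 45.8 ± 14.7 CPM to 563 ± 72 (SD, n = 3, 12.3-fold) and the Cast part from 30.5 ± 9.6 to 857 ± 124 (28.1-fold). From day 1 to day 4 the ratio in TXdXicCast changed by -0.13 (adjusted p = 0.055246).

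Sgce, transcribed away from Peg10 across the 98 bp, shifted the same way on fewer counts. Its B6 share in TX1072 was 71.2%, 56.8% and 61.5% at day 0, from 39 to 52 AS counts a library, and 38.7%, 44.3% and 44.2% at day 4. In TXdXicCast it was 61.9%, 68.3% and 77.6% at day 0 and 40.3%, 40.8% and 41.6% at day 4, without overlap in either line. TXdXicB6 replicate 1 at day 0, the library with 5.21% AS counts, gave 20.0% against 61.4% and 61.1% in the other replicates. The ratio changed by -1.24 ± 0.30 in TX1072 (adjusted p = 0.001209, and 0.15672 without replicate 1), -0.91 ± 0.30 in TXdXicB6 (adjusted p = 0.022865, and 0.46737 or 0.19554 without replicate 2 or 3) and -1.77 ± 0.27 in TXdXicCast (adjusted p = 1.6876e-07). From day 1 the change in TXdXicCast was -0.22 (adjusted p = 0.59396). Casd1, the next gene beyond Sgce, changed by 0.08 ± 0.25, 0.13 ± 0.28 and -0.11 ± 0.27 and did not pass. Ppp1r9a, a neighbour beyond Peg10 on the other side, changed by -0.05 ± 0.15, 0.15 ± 0.13 and 0.15 ± 0.12 and did not pass, while from day 1 it moved to B6 by 0.40 ± 0.10 in TXdXicCast (adjusted p = 0.0016053). Further along that side, Pon2 (chr6:5264147-5298455), a paraoxonase gene, moved towards B6, by 1.87 ± 0.64, 1.55 ± 0.56 and 2.13 ± 0.61 in the 3 lines (adjusted p = 0.038461, 0.049339 and 0.0067658), but by -0.05 from day 1 in TXdXicCast (adjusted p = 0.98297). Pon2 rests on few reads, 395, 518 and 606 AS counts over all days in the 3 lines. At least 20 AS counts of it were found in 10, 10 and 12 libraries. Asb4 (chr6:5383386-5433022), a gene for a protein with ankyrin repeats, also moved towards B6, by 3.11 ± 0.59 in TX1072 and 3.66 ± 0.55 in TXdXicCast (2.02 from day 1), and gave 1.37 ± 0.57 in TXdXicB6, where it did not pass (adjusted p = 0.10045). The pooled B6 share of Asb4 was 33.3%, 32.5% and 24.0% at day 0 and 81.3%, 54.5% and 80.2% at day 4 in TX1072, TXdXicB6 and TXdXicCast, from 66 to 146 AS counts a group.

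Inpp5f moved the other way. Its B6 share in TX1072 was 16.4%, 20.2% and 13.2% at day 0, then 34.9%, 29.9% and 27.5% at day 2, and ended with 34.1%, 39.8% and 36.7% at day 4. In TXdXicB6 it went from 13.6%, 13.5% and 21.2% at day 0 to 38.5%, 35.6% and 34.6% at day 4, and in TXdXicCast 15.8%, 14.5% and 17.4% and then 36.1%, 32.9% and 42.1%. Day 0 and day 4 did not overlap in any line, and Cast stayed the higher allele in all libraries. The log2 ratio rose by 1.52 ± 0.26, 1.53 ± 0.24 and 1.62 ± 0.22 in the 3 lines, and by 0.82 from day 1 in TXdXicCast. In TX1072 the B6 part went from 3.21 to 12.4 CPM (3.88-fold) and the Cast part from 15.9 to 21.2 (1.33-fold). The neighbouring gene Bag3 (chr7:128523616-128546981), a co-chaperone of HSP70, took the same course: its mean B6 share was 13.8% ± 3.9 at day 0 and 44.5% ± 2.9 at day 4 in TX1072, 15.5% ± 2.8 and 45.9% ± 3.2 in TXdXicB6 and 13.3% ± 2.0 and 43.7% ± 1.0 in TXdXicCast (SD, n = 3). The change in its log2 ratio was 2.27 ± 0.41, 2.14 ± 0.21 and 2.33 ± 0.18, and 1.36 from day 1 in TXdXicCast. The genes on the other side of Inpp5f did not take this course. Mcmbp, which follows Inpp5f directly, had a B6 share of 49.6% to 60.7% in all TX1072 libraries, and Sec23ip one of 43.7% to 55.3%.

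In bulk RNA Impact was read more from the Cast allele at every day. Its B6 share lay between 33.0% and 42.5% in all 45 libraries, at 34.1%, 33.6% and 36.8% at day 0 and 41.8%, 40.1% and 39.7% at day 4 in TX1072. The ratio rose from day 0 to day 4 by 0.37 ± 0.08 in TX1072 and by 0.26 ± 0.07 in TXdXicCast (adjusted p = 0.002336, 0.13224 without replicate 3, and 0.11827 from day 1), and gave 0.10 ± 0.08 in TXdXicB6, where it did not pass. The adjacent gene Osbpl1a, which codes for a lipid-binding protein, had a B6 share of 29.8% to 42.3% in the libraries of TX1072, 24.0% to 43.4% in those of TXdXicB6 and 30.0% to 44.1% in those of TXdXicCast. No sequence is shown for Impact.

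Among the other members, Mest gave 42.5%, 46.7% and 34.2% B6 at day 0 and 49.7%, 52.7% and 49.8% at day 4 in TX1072, and its ratio rose by 0.53 ± 0.19 (adjusted p = 0.048567), a call lost without any one replicate (adjusted p up to 0.34498) and with DESeq2 (0.08405). In TXdXicB6 it rose by 0.47 ± 0.16 (adjusted p = 0.039138, 0.051324 without replicate 1 and 0.63782 without replicate 2), and in TXdXicCast it gave 0.16 ± 0.16. From day 1 it rose there by 0.26 (adjusted p = 0.011989). Grb10 moved towards Cast at day 1. Its B6 share in TX1072 was 57.5%, 60.2% and 49.3% at day 0, then 40.0%, 43.4% and 38.5% at day 1, without overlap, and 57.7%, 55.6% and 51.9% at day 4. The pooled share went from 54.0% to 41.2% between days 0 and 1 in TXdXicB6 and from 52.4% to 40.5% in TXdXicCast, and the log2 ratio changed by -0.91 ± 0.24, -0.74 ± 0.22 and -0.67 ± 0.22 in the 3 lines (adjusted p = 0.005403, 0.019268 and 0.027799). From day 0 to day 4 it gave -0.10 ± 0.25 in TX1072. In the deletion lines the value to day 4 was -0.55 ± 0.21 in TXdXicB6 (adjusted p = 0.063639) and -0.50 ± 0.20 in TXdXicCast (adjusted p = 0.060096). With the replicate number as a block, which pairs libraries of the same differentiation, these became -0.58 (adjusted p = 0.026388) and -0.53 (adjusted p = 0.024921). Copg2, Zrsr1 and Peg13 did not pass in any line, and Zrsr1 ranged from 9.09% B6, in the library of lowest AS share with 11 AS counts of the gene, to 62.4%.

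From day 0 to day 4 the ratio thus moved to B6 in 3 members and to Cast in 2 in TX1072, in 2 and 2 in TXdXicB6, and in 2 and 2 in TXdXicCast, out of 9 tested. Over all genes tested 6.86% moved to B6 and 7.3% to Cast in TX1072 (14337 genes), 8.39% and 6.72% in TXdXicB6 and 9.39% and 10.7% in TXdXicCast (16295 genes). No member passed the test of a difference between the deletion lines in this change. For Peg10 the difference was 0.03 with a 95% interval of -0.13 to 0.19, for Inpp5f -0.09 with an interval of -0.73 to 0.56, and for Sgce 0.85, the largest of the 9, with an interval of 0.06 to 1.65 before adjustment (adjusted p = 0.48597).

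Over the mean of 5 days no member was higher from B6 in TX1072 or TXdXicB6, and Cast was higher in 4 of 9 members in TX1072 and 7 of 9 in TXdXicB6. In TXdXicCast Cast was higher in 5 and B6 in 1, Peg13 (0.23 ± 0.08, adjusted p = 0.0057783, and 0.12547 or 0.14205 without replicate 1 or 3). Of all genes, B6 was higher in 36.3% and Cast in 24.6% in TX1072, 35.6% and 22.7% in TXdXicB6, and 35.2% and 25.1% in TXdXicCast. Peg10 (-0.39 ± 0.02, -0.27 ± 0.02 and -0.27 ± 0.02 on the log2 scale), Copg2 (-0.16 ± 0.04, -0.32 ± 0.04 and -0.22 ± 0.04), Impact (-0.64 ± 0.02, -0.67 ± 0.02 and -0.77 ± 0.02) and Inpp5f (-1.31 ± 0.07, -1.45 ± 0.07 and -1.41 ± 0.06) were higher from Cast in each line. Sgce (-0.32 ± 0.09), Mest (-0.17 ± 0.04) and Grb10 (-0.20 ± 0.06) were higher from Cast in TXdXicB6, and Grb10 (-0.24 ± 0.06) also in TXdXicCast. Mest gave -0.08 ± 0.04 in TXdXicCast (adjusted p = 0.052177, and 0.040868 with the replicate block). Beside a mean over 5 days stands the course of Peg10, whose share was at least 58.4% at day 0 and at most 44.4% from day 1.

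The ratio averaged over 5 days differed between the deletion lines in Impact only, by 0.10 ± 0.03 towards B6 in TXdXicB6 (adjusted p = 0.03235). Of all genes 3.42% had a higher ratio in TXdXicB6 and 1.92% in TXdXicCast. The call was lost without replicate 2 (0.05, adjusted p = 0.82335), without replicate 3 (adjusted p = 0.096802) and without the 4 libraries of low AS share (adjusted p = 0.061738). For Peg10 the difference was -0.003 with a 95% interval of -0.05 to 0.04.

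In single TX1072 cells the pooled AS UMIs gave B6 shares of Peg10 that were lower at day 4 than at day 0, the direction seen in bulk. Their course differed, since in bulk most of the shift was seen by day 1. The single-cell shares were 63.2% at day 0 (19 UMIs, exact Clopper-Pearson 95% interval 38.4% to 83.7%), 47.2% at day 1 (375 UMIs, 42.05% to 52.4%), 38.4% at day 2, 40.9% at day 3 and 32.7% at day 4 (391 UMIs, 28.1% to 37.6%). Inpp5f gave 16.1% at day 0 (124 UMIs, 10.1% to 23.8%), 37.9% at day 2 and 26.4% at day 4 (246 UMIs, 21.0% to 32.4%), and Sgce 57.1% at day 0 and 39.9% at day 4. Impact gave 37.5% at day 0 (288 UMIs, 31.9% to 43.4%), 49.15% at day 2 (1231 UMIs, 46.3% to 52.0%) and 47.3% at day 4 (1224 UMIs, 44.5% to 50.2%). Over all AS UMIs the B6 share was 50.8% to 51.3% by day. AS UMIs were 12.1% of all UMIs at day 1, the day with the added run, and 14.1% to 14.6% at the other days. The intervals cover counting error only, and with a single culture per day no test between days is possible.

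**Figure D3:**
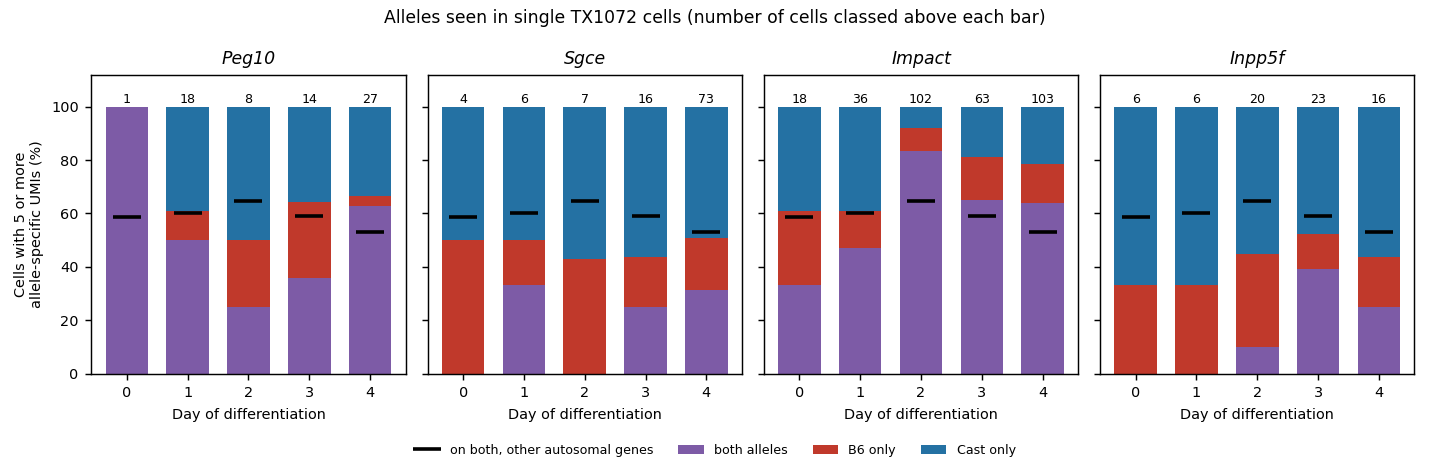
Percent of TX1072 cells with UMIs from both alleles, from B6 only or from Cast only, by day, for Peg10, Sgce, Impact and Inpp5f, among cells with at least 5 AS UMIs of the gene (number of cells above each bar), with the percent on both over other autosomal genes as a black mark. Cells with both alleles appear for each of the 4 genes, for Impact in 215 of 322 and for Inpp5f in 15 of 71 over all days, and many bars stand on fewer than 20 cells.

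Cells with both alleles were counted for each member. Among 593 pairs of a member and a cell with at least 5 AS UMIs, 294 (49.6%) held UMIs from both alleles, 101 from B6 only and 198 from Cast only. Impact gave 215 of its 322 pairs (66.8%), and the other members together 79 of 271 (29.2%). Pairs of the same gene, cell or culture are not independent, so no interval is given over them. Over the other autosomal genes the percent on both was 58.6, 60.4, 64.6, 59.0 and 53.1 at days 0 to 4. Over all days Peg10 was on both alleles in 34 of 68 cells, Sgce in 29 of 106, Inpp5f in 15 of 71, Mest in 1 of 7, Copg2 in 0 of 8, Peg13 in 0 of 5, Zrsr1 in 0 of 4 and Grb10 in 0 of 2, and no cell had enough AS UMIs of Nnat. By day, Peg10 ranged from 2 of 8 at day 2 to 17 of 27 at day 4 (1 of 1 at day 0), Sgce from 0 of 4 at day 0 to 23 of 73 at day 4 with 2 of 6 at day 1, Inpp5f from 0 of 6 at days 0 and 1 to 9 of 23 at day 3, and Impact from 6 of 18 at day 0 to 85 of 102 at day 2. The percent depends on the number of UMIs: over other autosomal genes at day 4 it was 37.4 with 5 to 9 AS UMIs and 83.7 with 20 or more. At matched counts at day 4, Sgce was on both alleles in 15 of 45 cells with 5 to 9 AS UMIs (33.3%) and in 5 of 23 with 10 to 19 (21.7%, beside 59.5% of the autosomal pairs), Impact in 34 of 63 (54.0%) and 29 of 37 (78.4%), and Peg10 in 12 of 18 and 4 of 8. With 5 to 9 AS UMIs at days 1, 2 and 3, the percent over the autosomal pairs was 48.4, 52.3 and 45.65. Peg10 was on both alleles in 7 of 15, 2 of 8 and 3 of 11 of these cells. Sgce gave 2 of 6, 0 of 7 and 4 of 16. Impact gave 17 of 36, 66 of 81 and 32 of 51. Inpp5f gave 0 of 6, 1 of 18 and 9 of 18, and 4 of 14 at day 4. Both Inpp5f cells with 20 or more AS UMIs, at days 0 and 4, held Cast UMIs only. These counts come from a single culture per day and no test was made over cells.

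Among other imprinted genes, from a list of 33, more rose than fell in level. Of 32 tested, 23 rose and 4 fell in TX1072, 23 and 3 in TXdXicB6, and 24 and 3 in TXdXicCast (18 and 3 from day 1). Of all genes 29.8%, 30.1% and 36.0% rose and 30.0%, 29.1% and 33.7% fell. From day 1 in TXdXicCast, 30.4% of all genes rose and 28.8% fell. The median log2 changes of the list were 1.63, 1.53 and 1.59, beside -0.05, -0.000895 and 0.05 over all genes. The largest in TX1072 were H19, a noncoding RNA beside Igf2 (8.20 ± 0.24), Magel2, a gene of the Prader-Willi region (7.46 ± 0.27), and the transporter gene Slc22a3 (7.00 ± 0.78). At day 4, 28 of the 33 were biallelic in TX1072 and 0 monoallelic, with 5 of too few counts. In the ratio from day 0 to day 4, 3 moved to B6 and 2 to Cast of 28 tested in TX1072, 3 and 0 of 30 in TXdXicB6 and 6 and 5 of 30 in TXdXicCast, with medians of -0.04, 0.08 and -0.03. Over all genes tested 6.86% moved to B6 and 7.3% to Cast in TX1072, 8.39% and 6.72% in TXdXicB6, and 9.39% and 10.7% in TXdXicCast. From day 1, 4 and 4 moved in TXdXicCast, where Peg3 and Plagl1, zinc finger genes, moved to Cast (-1.30 ± 0.05 and -1.47 ± 0.11). Of all 16295 genes tested there from day 1, 6.13% moved to B6 and 8.38% to Cast. Meg3, Rian and Mirg, noncoding RNAs of a shared locus, had B6 shares of 12.5%, 12.8% and 13.0% at day 0 and 44.0%, 44.9% and 48.1% at day 4 in TX1072, and their log2 ratios rose by 2.46 ± 0.17, 2.47 ± 0.07 and 2.63 ± 0.14. In the deletion lines they rose by 2.36 to 2.55, and from day 1 in TXdXicCast by 1.21 to 1.38.

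Among 25 neighbours of the members, 6 rose and 7 fell in TX1072 (19 tested), 6 and 9 in TXdXicB6 and 7 and 10 in TXdXicCast (20 tested each, and 5 and 7 from day 1 in TXdXicCast), beside the 29.8% and 30.0%, 30.1% and 29.1%, and 36.0% and 33.7% of all genes that rose and fell. The shares of all genes from day 1 in TXdXicCast were 30.4% and 28.8%. The single monoallelic neighbour was Calcr, the calcitonin receptor gene, which lies beyond Casd1 as seen from Sgce, with B6 shares of 3.41% of 88 AS counts, 8.43% of 83 and 9.36% of 171 at day 2 in TX1072, TXdXicB6 and TXdXicCast. Of autosomal genes 1.97%, 1.47% and 1.78% were monoallelic there. At day 4 it was biallelic in the deletion lines (33.6% and 24.7%).

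Of 12 genes that set, keep or remove the methylation of imprints, 3 rose and 6 fell in TX1072, 3 and 7 in TXdXicB6, and 3 and 8 in TXdXicCast (1 and 9 from day 1), beside 29.8%, 30.1% and 36.0% of all genes that rose and 30.0%, 29.1% and 33.7% that fell. From day 1 in TXdXicCast these shares were 30.4% and 28.8%. The median log2 changes of the list were -0.55, -0.70 and -1.19. Tet2, which codes for an enzyme that oxidizes methylcytosine, fell by 4.76 ± 0.17, 4.96 ± 0.18 and 4.54 ± 0.17, and by 3.34 from day 1 in TXdXicCast. Zfp57 fell by 2.89 ± 0.13, 2.80 ± 0.18 and 2.68 ± 0.18 (by 2.85 from day 1 in TXdXicCast), after 402 ± 12 CPM at day 1 against 316 ± 32 at day 0 in TX1072 (SD, n = 3). Dnmt3l, the cofactor of de novo methylation, rose by 2.73 ± 0.23, 3.76 ± 0.22 and 2.65 ± 0.21 from day 0, while from day 1 it fell by 2.16 in TXdXicCast.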

How the data were processed

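The authors deposited whole-number counts of uniquely aligned exon reads per gene from featureCounts for 45 bulk libraries (STAR 2.5.2b, mm10 masked at the SNPs, alleles by SNPsplit), in all and per allele, and UMI counts per gene and capture site for single TX1072 cells, as totals, by allele and by splicing state. The strand setting of the bulk counting is not given in the sources used here. The deposited counts were used as they are, and no column of per-sample values was left out. A retained cell is one of the 1472 of 2000 capture sites in the study's cell list, with at least 43060 UMIs, and no cell name is shared between days.

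Levels were tested with edgeR 4.0.16 (R 4.3.3), by the quasi-likelihood test with TMM factors from autosomal genes and filterByExpr, fitted once to the 15 TX1072 libraries and once to the 30 of the deletion lines. AS counts were tested with 2 columns and a term per library and a library size shared by both alleles. Tests were two-sided, with p-values adjusted by Benjamini-Hochberg over all genes tested and 0.05 as the threshold, and SEs were taken from the fitted log2 value and its F. No p-value was computed over cells. Classes and intervals were set as given in the text, and figures were drawn with matplotlib 3.10.9. All scripts that test genes were tested on simulated data with known changes.

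All 10 members are named. From the lists of other imprinted genes, neighbours, genes of imprint methylation and paralogues, the 3 called genes of largest absolute log2 value per comparison could be named, and every host gene. Calcr, Casd1, Osbpl1a, Mcmbp, Sec23ip and Ppp1r9a among the neighbours, and Peg3 and Plagl1, were named after their values were seen. The members, lists and alternatives were chosen with earlier results of these data known. Each replicate was differentiated on another day by the study's reporting summary, so replicate numbers pair libraries. As a check, the median correlation of deviations from group means between days was 0.126, 0.198 and 0.145 for the same number (TX1072, TXdXicB6, TXdXicCast) and -0.0676, -0.102 and -0.113 for different numbers. Alternatives were DESeq2 1.42.0, DESeq2 size factors, TMM from all genes, no filter, a replicate block, each replicate left out, other allele limits and library sizes, day 1 for day 0 in TXdXicCast, other cell filters, and, added after the data were seen, the deletion lines without 4 libraries of low AS share. Promoter and SNP sequences came from RefSeq (GRCm38.p6) and mm10.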

Additional observations from a re-analysis of the deposited data

Results flagged for a closer look

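The change of Peg10 from day 0 to day 4 differed between TXdXicB6 and TXdXicCast, by -1.12 on the log2 scale, and that from day 1 to day 4 by -1.11, each by a test of the difference itself (edgeR, adjusted p = 0.0028206 and 0.021556). At day 4 all 3 TXdXicB6 libraries lay below all 3 TXdXicCast libraries. TXdXicCast replicate 3 was the highest, and without replicate 3 the first difference was -0.59 (adjusted p = 0.16427) and the second -0.73 (adjusted p = 0.20219). Without replicate 1 or 2 the second was -1.16 (adjusted p = 0.30586) or -1.39 (adjusted p = 0.13646).

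The B6 to Cast ratio of Impact, averaged over 5 days, differed between the deletion lines by 0.0989 on the log2 scale (edgeR, adjusted p = 0.03235). It did not pass without replicate 2 (0.05, adjusted p = 0.82335), without replicate 3 (0.11, adjusted p = 0.096802) or without the 4 libraries of low AS share (0.10, adjusted p = 0.061738).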

How the results depend on the processing

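Among 873 values of single genes under an alternative, 813 kept their direction and their side of the threshold, 28 lost and 10 gained the call, and 22 changed sign. Among the members, the only value that changed sign after being called was the level of Mest in TXdXicCast, counted from day 1. Outside the members, the levels of Dnmt3l, Trappc9 and Commd1 and the ratio of Pon2 also changed sign from a called value in that setting. The cause of these changes was not tested. Leaving out each replicate in turn gave 9 members called for the level in TX1072, 9 to 10 in TXdXicB6, 9 in TXdXicCast and 0 to 1 between the deletion lines. For B6 against Cast it gave 4 in TX1072, 6 to 7 in TXdXicB6 and 5 to 6 in TXdXicCast, for the allelic change 3 to 4, 2 to 3 and 3 to 5, and for the ratio between the lines 0 to 1. Without a filter on low counts 2 members, Peg10 and Grb10, differed between the lines. The ratio between the lines gave 0 without the 4 libraries of low AS share. From day 1, the ratio in TXdXicCast had 2 of 9 members called, both towards B6, while 6.13% of all genes moved to B6 and 8.38% to Cast. The level of Mest from day 1 was -0.43 and that of Copg2 0.28. In that setting the ratio gave -0.015 for Copg2, 0.17 for Grb10 and 0.16 for Peg13.

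With the replicate block, which pairs libraries of the same number, Mest over 5 days in TXdXicCast and the change in the ratio of Grb10 in both deletion lines were called, the ratio change of Zrsr1 in TXdXicCast was -0.018, and no other call of a member changed. With an own library size per allele, Peg13 over 5 days in TX1072 was -0.0022 and Peg10 between the lines 0.0017. Leaving out a replicate moved some values across 0. The change of Grb10 from day 0 to day 4 in TX1072 ranged from -0.097 to 0.54, and Peg13 between the lines from -0.049 to 0.017. For B6 against Cast over 5 days in TX1072, Peg13 ranged from -0.018 to 0.18, Mest from -0.058 to 0.022 and Grb10 from -0.12 to 0.0093, and in TXdXicB6 Peg13 ranged from -0.020 to 0.14. For the change in the ratio, Zrsr1 ranged from -0.21 to 0.41 in TX1072, from -0.20 to 0.86 in TXdXicB6 and from -0.067 to 0.34 in TXdXicCast, where Mest ranged from -0.062 to 0.36 and Copg2 from -0.069 to 0.13. For the ratio between the lines, Peg10 ranged from -0.0087 to 0.014 and Grb10 from -0.032 to 0.10.

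In single cells the percent of pairs on both alleles was 49.6, and it was 40.3 with at least 3 AS UMIs, 60.9 with at least 10 and 35.7 in cells thinned to 40000 UMIs. The alleles of Nnat, which has 1 exonic SNP, were not told apart, and Sgce at day 0 rests on 39 to 52 AS counts a library in TX1072.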

Other observations

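Unspliced UMIs, which overlap introns, gave another balance of the alleles than the UMIs over exons used in the report. With unspliced UMIs, whose allele tables hold 7 of the 10 members, 279 of 591 pairs of a member and a cell (47.2%) held both alleles, 170 held B6 only and 142 Cast only. The UMIs over exons gave 294 of 593 with both, 101 with B6 only and 198 with Cast only. Impact supplied 464 of the 591 pairs and 322 of the 593, and the pairs do not come from the same genes and cells, so the sets are not matched. Without Impact, 50 of 127 unspliced pairs held B6 only and 56 Cast only. Over exons 57 of 271 pairs without Impact held B6 only and 135 Cast only. No test was made over cells, and the cause was not tested.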
